A study of Mus musculus with 8 samples.

Results

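Fibroblast growth factors (FGFs) are secreted ligands that bind receptor tyrosine kinases at the cell surface together with heparan sulfate. In the developing mouse kidney they pass between stroma, nephron progenitors and ureteric epithelium, and they are known for keeping progenitors alive and for supporting branching of the ureteric bud. Receptor signalling runs through the Ras and MAP kinase cascade, switches on Etv transcription factors and induces Sprouty and Dusp inhibitors that damp the signal. The 10 genes described here are the ligand genes Fgf2, Fgf7, Fgf8, Fgf9, Fgf10 and Fgf20 and the receptor genes Fgfr1, Fgfr2, Fgfr3 and Fgfrl1. They were chosen by name from a table of 23337 genes, and all 10 were in it.

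RNA came from whole kidneys of mouse embryos at E13.5, on a background labelled C57BL/6 (mixed), from matings of Foxd1Cre(Smo+/-) with Smo(flox/flox) mice. The 4 mutant libraries are Foxd1Cre;Smo(flox/-). Their Cre is made in progenitors of the renal stroma, where it removes the floxed copy of Smo, the membrane protein that passes on the hedgehog signal. The 4 control libraries are Smo(flox/+) with no Cre named in the label, although their source label reads wildtype. A mutant kidney therefore also had a single Smo copy outside the stroma and held the Cre allele, and these cannot be told apart from the stromal loss. Whether samples 1 to 4 were separate embryos or pools is not given, so a p-value here covers only the spread between these samples. In each group 1 library held Y-linked transcripts and 3 did not, so the libraries of a group were not all from 1 embryo.

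Levels are the authors' normalised read counts, with the mean and SD of 4 libraries per group, from libraries of 10288191 to 13494079 reads in genes. The log2 fold change compares mutant with control after adding 1 to each normalised count, a scale on which changes of low genes come out smaller. Tests are by limma, with p-values adjusted (Benjamini-Hochberg) over the 13692 genes with a mean of at least 10, and all 10 FGF genes passed that filter. Smo fell to 509 to 553 in mutant libraries, against 2152 to 2294 in control libraries (log2 fold change -2.06, limma adjusted p = 1.87e-10). Markers of nephron progenitors, ureteric bud and renal stroma were present in every library. Skeletal muscle markers summed to 2248 in mutant 2 and 4022 in control 2, against 139 to 688 in the other 6 libraries. Liver markers summed to 886 in control 1, against 78.0 to 241 elsewhere, and Y-linked transcripts were at 3270.4 in mutant 2 and 3504 in control 4 and under 3 in the others.

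None of the 10 FGF genes passed the test between genotypes by limma, edgeR or DESeq2, where 0.57% of all tested genes passed by limma (0.124% higher and 0.446% lower in mutants). Mean levels were higher in mutants for 8 of the 10 and lower for 2, where 51.9% of all tested genes were higher. The median log2 fold change was 0.11, beside 0.0037 over all tested genes. An unadjusted p under 0.05 was reached by Fgf10 and Fgfr1, both higher in mutants, where 8.7% of all tested genes reached it (3.53% higher and 5.17% lower). The same pair had 4 mutant libraries that lay above all 4 control libraries, a pattern without overlap that 5.31% of all tested genes showed in either direction and 2.31% with mutants higher. The other 8 genes had overlapping groups. In the authors' deposited table, which calls 0.614% of genes, Fgf10 had a fold change of 1.22 (adjusted p = 0.390), Fgfr1 had 1.09 (adjusted p = 0.640) and the other 8 genes had an adjusted p of 1.

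**Figure D1:**
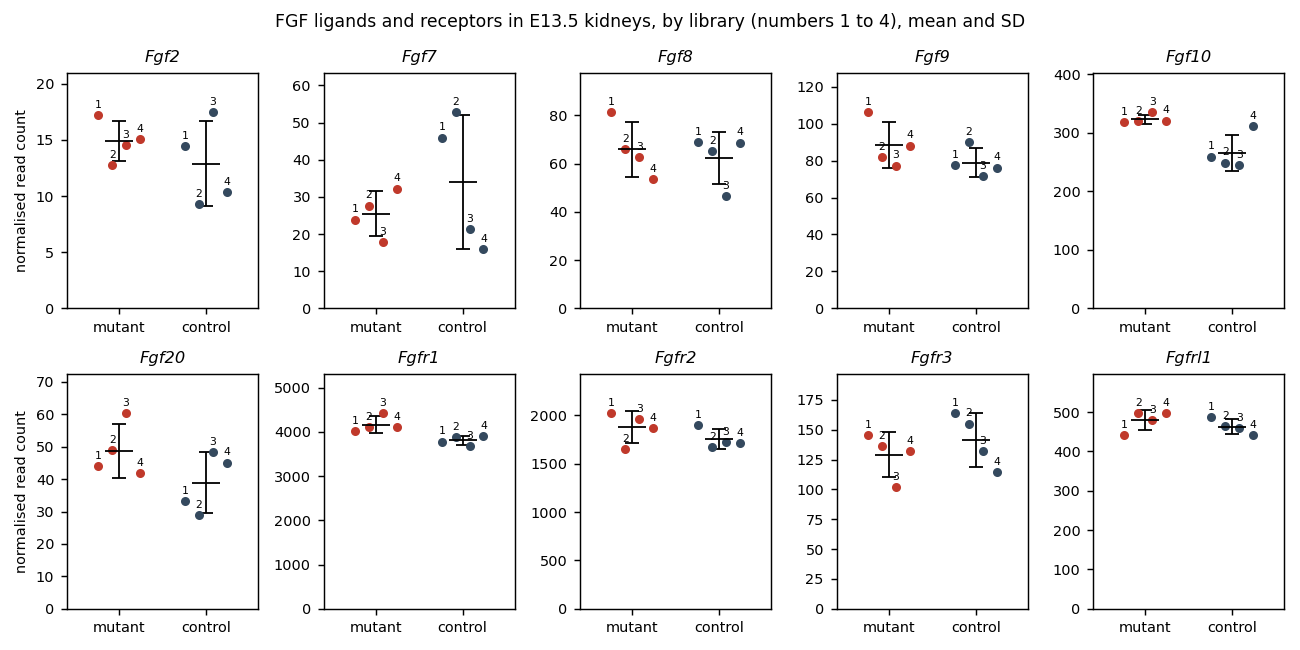
Normalised read count (y axis, from 0) of each FGF gene in the mutant and control libraries, numbered 1 to 4, with mean and SD. Fgf10 (319 to 335 in mutants, 245 to 311 in controls) and Fgfr1 (4009 to 4431 and 3669 to 3909) do not overlap between groups, while Fgf7 ranges from 15.98 to 52.7 among controls alone.

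Fgf10 and Fgf7 encode closely related ligands that mesenchymal cells release and that act on epithelium through the IIIb splice form of Fgfr2. Fgf10, on chromosome 13 from 118714699 to 118792573 of GRCm38, had 319, 319, 335 and 321 normalised counts in mutants 1 to 4, against 259, 249, 245 and 311 in controls 1 to 4. The mutant libraries were nearly level with each other, and control 4 lay close beneath them while the other controls were lower. Among mutants the SD was 2.35% of the mean, under the 5.70% that counting error alone would give. The means were 324 ± 7.6 in mutant and 266 ± 30.6 in control kidneys, a log2 fold change of 0.29 (SE 0.079, 95% interval 0.11 to 0.46, limma adjusted p = 0.186). That is 1.22 times the control level, with an interval of 1.08 to 1.38. Without control 4 the log2 fold change was 0.36 and passed (limma adjusted p = 0.0179), in a fit that called 1.35% of all genes, and without any other single library the adjusted p lay between 0.260 and 0.464. Exons of Fgf10 overlap those of the antisense gene Gm16263, and where counting ignores strand their reads cannot be told apart.

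Fgf7, on chromosome 2 from 126034658 to 126091185, had 23.9, 27.7, 17.9 and 32.2 normalised counts in mutants 1 to 4, against 45.9, 52.7, 21.3 and 15.98 in controls 1 to 4. Controls 1 and 2 were higher than every mutant, and control 4 was lower than every mutant. Fgf7 averaged 25.4 ± 6.1 in mutant and 34.0 ± 18.1 in control kidneys (log2 fold change -0.27, 95% interval -1.06 to 0.52, limma adjusted p = 0.908). The SD among controls was 53.1% of the mean, where counting error alone would give 16.7%, and among mutants 23.8% where it would give 20.3%. Without controls 1 and 2, the libraries with the highest and next highest Fgf7, the log2 fold change changed sign to 0.41 (limma adjusted p = 0.741). Leaving out the highest controls can only raise this value. The summed stromal markers other than Foxd1 were also highest in controls 2 and 1 (37513 and 34262, against 26021 to 31014 in the other 6 libraries). In control 2 the largest parts of that sum were Col3a1 (13588) and Col1a1 (8578). These collagens, Pdgfra, Pdgfrb, Dcn and Penk were highest in controls 1 and 2. Meis1, Meis2, Tcf21, Ntn1 and Tbx18 were highest in other libraries. Skeletal muscle markers were highest in control 2 and liver markers in control 1. The part of stroma, muscle and liver in the level of Fgf7 was not tested.

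The 250 bases before the RefSeq start of these paralogues (GRCm38.p6, plus strand, chr13:118714449-118714698 for Fgf10 and chr2:126034408-126034657 for Fgf7) are shown because the pair shares a receptor, differed in the sign of fold changes that did not pass, and had a negative correlation over the 8 libraries (r = -0.54). Both strands were searched for the GLI consensus GACCACCCA, through which hedgehog signals act, for the CCAAT box, for the SP1 box GGGCGG, for TATAA and for the ETS consensus ACCGGAAGT. Capitals mark matches, and also a GLI match with 1 mismatch.
Fgf10: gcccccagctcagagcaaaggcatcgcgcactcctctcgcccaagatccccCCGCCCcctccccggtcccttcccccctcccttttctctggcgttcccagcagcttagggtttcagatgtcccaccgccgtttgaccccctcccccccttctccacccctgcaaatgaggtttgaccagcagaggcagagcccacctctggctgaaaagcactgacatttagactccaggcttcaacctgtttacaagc
Fgf7: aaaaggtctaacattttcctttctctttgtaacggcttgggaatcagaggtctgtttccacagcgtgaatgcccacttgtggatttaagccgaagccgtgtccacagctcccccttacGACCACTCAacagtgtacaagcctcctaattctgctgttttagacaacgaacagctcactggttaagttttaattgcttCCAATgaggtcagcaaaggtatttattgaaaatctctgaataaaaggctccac

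The Fgf10 window is rich in G and C (61.2%) and holds 1 SP1 box, read on the opposite strand, a motif found in 32.7% of the 32851 RefSeq windows of the same length. The Fgf7 window has 43.6% G and C and a CCAAT box, found in 33.8% of all windows. Beginning 132 bases before its start, the Fgf7 window also reads GACCACTCA, which differs from the GLI consensus by C7T, with positions counted from 1 at the 5′ end of the consensus. A match with at most 1 mismatch is in 5.79% of all windows and an exact one in 0.225%. RefSeq windows were found for 7 of the 10 FGF genes (8 windows), and none of these held the exact GLI or ETS consensus.

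Fgf9 and Fgf20 encode related ligands that together keep nephron progenitors alive in the mouse. Fgf20, on chromosome 8 from 40279166 to 40286953, had 43.9, 49.0, 60.5 and 41.9 normalised counts in mutants 1 to 4, against 33.2, 28.9, 48.4 and 45.1 in controls 1 to 4. Mutants 2 and 3 lay above every control and the other mutants within the control range. It averaged 48.8 ± 8.3 in mutant and 38.9 ± 9.3 in control kidneys, a log2 fold change of 0.34 (95% interval -0.10 to 0.77, limma adjusted p = 0.732). This was 0.21 without control 2, the lowest library, and 0.047 without controls 1 and 2, both lower than every other library. Leaving out the lowest controls can only bring the value down. Fgf9, on chromosome 14 from 58070671 to 58112854, had 106, 82.0, 77.3 and 88.1 normalised counts in mutants 1 to 4, against 77.4, 89.9, 71.7 and 76.2 in controls 1 to 4. Mutant 1 alone was above all controls. The means were 88.3 ± 12.6 in mutant and 78.8 ± 7.8 in control kidneys (log2 fold change 0.16, 95% interval -0.13 to 0.44, limma adjusted p = 0.821).

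Fgf8 is needed for the survival of cells that commit to form nephrons and marks their early aggregates. On chromosome 19 from 45736491 to 45742941, it had 81.2, 66.0, 62.7 and 53.7 normalised counts in mutants 1 to 4, against 68.9, 65.1, 46.5 and 68.6 in controls 1 to 4. The 2 groups covered much the same range, apart from a high mutant 1 and a low control 3. The means of 65.9 ± 11.4 in mutant and 62.3 ± 10.7 in control kidneys gave a log2 fold change of 0.082 (95% interval -0.29 to 0.46, limma adjusted p = 0.948). Its sign changed without mutant 1 (-0.022) and without control 3 (-0.050).

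Fgf2, a ligand without a classical signal peptide, was the lowest of the 10 genes, with 9 to 18 reads per library. On chromosome 3 from 37348477 to 37410106, it had 17.2, 12.8, 14.6 and 15.04 normalised counts in mutants 1 to 4, against 14.5, 9.30, 17.4 and 10.3 in controls 1 to 4. All 4 mutants lay within the control range. The log2 fold change was 0.23 (95% interval -0.36 to 0.82, limma adjusted p = 0.891), and counting error alone amounts to 26.5% of the mutant mean and 27.0% of the control mean. Exons of Fgf2 overlap those of Nudt6 on the opposite strand, itself a tested gene, and of Gm43439 on the same strand. Fgf20, Fgfr1 and Fgfr3 also share exon sequence with genes on the opposite strand (Micu3, Gm16159 and G630022F23Rik). None of these 3 was found among the tested genes under its GENCODE name, and other names were not searched.

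Among receptors, Fgfr1 and Fgfr2 are the main FGF receptor kinases of the early kidney, with Fgfr1 known from nephron progenitors and stroma and Fgfr2 also from the ureteric bud. Fgfr1, on chromosome 8 from 25518759 to 25575718, had 4009, 4112, 4431 and 4099 normalised counts in mutants 1 to 4, against 3778, 3873, 3669 and 3909 in controls 1 to 4. Every mutant was above every control, by a margin that was narrow beside the level itself. The means of 4163 ± 185 in mutant and 3807 ± 108 in control kidneys gave a log2 fold change of 0.13 (SE 0.037, 95% interval 0.046 to 0.21, limma adjusted p = 0.223), or 1.09 times the control level (1.03 to 1.16). No fit that left out 1 library called it (adjusted p from 0.130 to 0.531).

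Fgfr2, on chromosome 7 from 130162451 to 130266808, had 2026, 1649.6, 1962 and 1864 normalised counts in mutants 1 to 4, against 1900.3, 1668, 1724 and 1716 in controls 1 to 4. Mutants 1 and 3 were above every control and mutant 2 was the lowest of all 8 libraries. Its log2 fold change was 0.096 (95% interval -0.043 to 0.23, limma adjusted p = 0.776). In GENCODE vM21, exons given to Fgfr2 overlap those of Ctbp2 on the same strand, a tested gene. The positions above are from RefSeq, and whether the overlap lies between them was not checked. The gene totals do not separate the IIIb and IIIc splice forms, which bind different ligands.

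Fgfr3, the third kinase receptor, is the rarer one here. On chromosome 5 from 33721724 to 33737068, it had 145, 136, 102 and 132 normalised counts in mutants 1 to 4, against 164, 155, 132 and 115 in controls 1 to 4. Controls 1 and 2 were the highest libraries and mutant 3 the lowest. The means of 129 ± 18.8 in mutant and 141 ± 22.4 in control kidneys gave a log2 fold change of -0.13 (95% interval -0.44 to 0.18, limma adjusted p = 0.877). That fold change was 0.055 without controls 1 and 2, and leaving out the highest controls can only raise it.

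Fgfrl1 encodes a receptor that binds FGFs but lacks the kinase domain, and mice without it form little or no kidney. On chromosome 5 from 108694229 to 108706950, it had 442, 498, 481 and 497 normalised counts in mutants 1 to 4, against 487, 464, 460.2 and 441 in controls 1 to 4. Libraries of both groups lay close together, with an SD of 5.48% of the mean among mutants and 4.04% among controls. The log2 fold change was 0.050 (95% interval -0.073 to 0.17, limma adjusted p = 0.886), so the interval spans 0.950 to 1.13 times the control level.

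**Figure D2:**
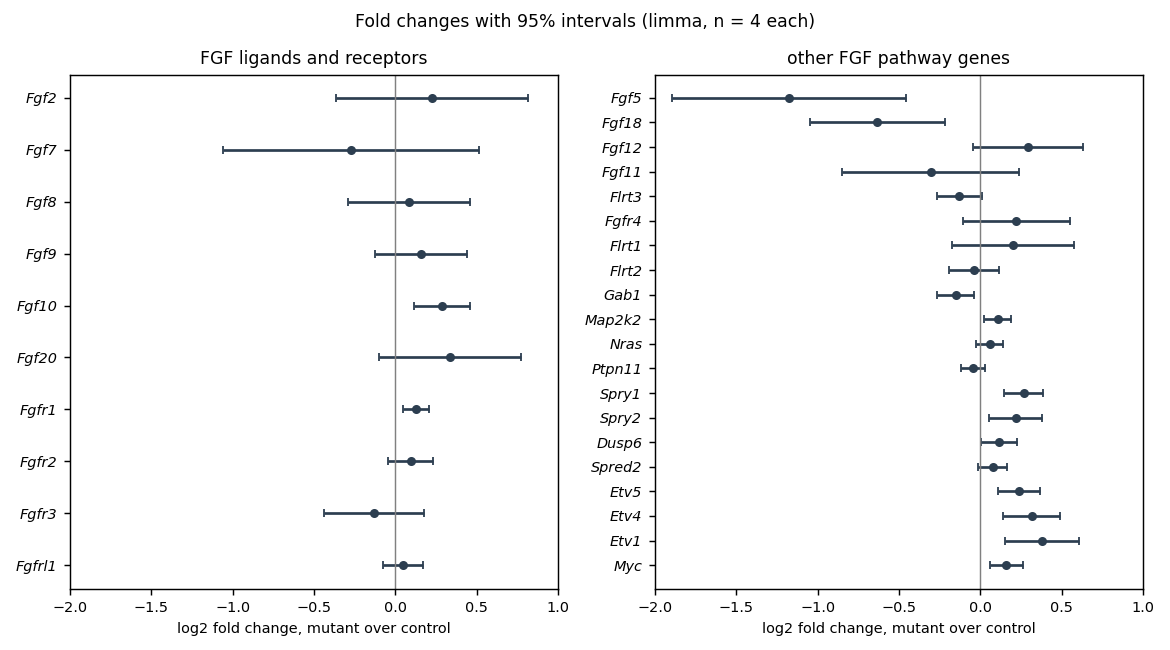
Log2 fold change of mutant over control (x axis) with 95% intervals from limma for the 10 FGF genes (left) and 20 other FGF pathway genes (right). Only the intervals of Fgf10 (0.11 to 0.46) and Fgfr1 (0.046 to 0.21) leave out 0 among the 10, and none of the genes drawn passed after adjustment over all genes.

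Per kilobase of exon sequence (the union of exons in GENCODE vM21), Fgfr1, Fgfr2 and Fgfrl1 stood above each of the 6 ligands. Other FGF ligand genes were not put on this scale. Fgfr1 was highest, at 422 ± 18.7 normalised counts per kb in mutant and 386 ± 10.9 in control kidneys. Fgfr2 (182 ± 15.96 in mutants, 169.7 ± 9.8 in controls) and Fgfrl1 (172 ± 9.4 in mutants, 166 ± 6.7 in controls) followed and overlapped each other in both groups. Fgf10 was the most abundant of the 6 ligands at 70.3 ± 1.65 per kb in mutant and 57.9 ± 6.6 per kb in control kidneys. It lay above Fgf8 at 48.8 ± 8.5 per kb in mutants and 46.1 ± 7.9 per kb in controls, with no overlap in either group. Then came Fgf20 (29.1 ± 5.0 per kb in mutants, 23.2 ± 5.6 per kb in controls), Fgf9 (19.0 ± 2.7 and 16.9 ± 1.7) and Fgfr3 (18.0 ± 2.6 and 19.8 ± 3.1). Fgf9 and Fgfr3 overlapped in both groups, and Fgf20 overlapped both of them in controls. Fgf7 (7.83 ± 1.86 per kb in mutants, 10.5 ± 5.6 per kb in controls) and Fgf2 (2.20 ± 0.27 and 1.90 ± 0.56) were lowest, with Fgf7 overlapping Fgf9 and Fgfr3 in controls.

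Fgfr4 was left out of the summed per-kb level of the 4 receptors. Of that sum, Fgfr1 made up 53.1% ± 1.14 in mutant and 52.0% ± 1.62 in control kidneys, and Fgfr3 made up 2.28% ± 0.38 and 2.66% ± 0.38. Among the 6 ligands Fgf10 made up 39.8% ± 2.2 in mutants and 36.9% ± 2.6 in controls, and Fgf8 27.4% ± 3.4 and 29.3% ± 3.4. With the longest transcript as the length (4429 bases for Fgfr2 against 10328 in its exon union), Fgfr2 lay 2.06-fold above Fgfrl1 in mutants and 1.99-fold in controls, without overlap. The order by longest transcript otherwise differed only in neighbours that overlap, Fgfr3 and Fgf20 in controls and Fgfr3 and Fgf9 in mutants.

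**Figure D3:**
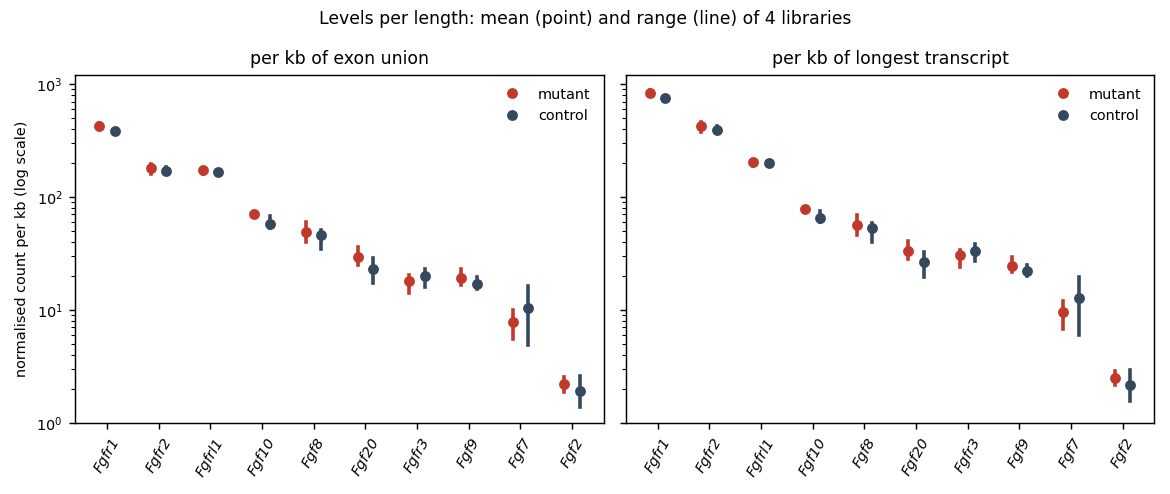
Normalised count per kb (y axis, log scale) for each FGF gene in mutant and control kidneys, as the mean (point) and range (line) of 4 libraries, with exon union (left) or longest transcript (right) as the length. Levels run from Fgfr1 (422 per kb in mutants, 386 in controls, left) down to Fgf2 (2.20 and 1.90).

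Across the 8 libraries, 29 of the 45 pairs of FGF genes had a positive correlation of log2 levels, with a median r of 0.12, which was -0.03 after the mean of each group was subtracted. Both genes of a pair were read from the same libraries, each with its own genotype, dissection and depth, so these values are descriptions. Fgf10 and Fgfr1 went together (r = 0.84, and 0.53 after each group's mean was subtracted), as did Fgf7 and Fgfr3 (0.84 and 0.83). Fgf20 ran against Fgf7 (r = -0.87, and -0.91 within groups) and against Fgfr3 (-0.83 and -0.83). Controls 1 and 2, with the highest Fgf7 and Fgfr3, had the lowest Fgf20, and mutant 3 had the highest Fgf20 with the lowest Fgfr3.

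Marker levels moved along the same libraries. The 12 nephron progenitor markers summed to 14079 to 14528 in mutant kidneys and 11438 to 13048 in control kidneys, lowest in controls 2 and 1. Over 8 libraries this sum had r = 0.91 with Fgf10, 0.81 with Fgf20 and 0.77 with Fgfr1. The sum of the stromal markers, Foxd1 included, had r = -0.8 with Fgf10, -0.75 with Fgf20 and -0.49 with Fgfr1. Fgf10, Fgfr1 and the progenitor sum did not overlap between groups, so their r values include the difference between genotypes. The 11 stromal markers other than Foxd1 summed to 26021 to 31014 in mutants and 27284 to 37513 in controls, and Foxd1 itself fell to 593 ± 137 in mutants, against 1477 ± 473 in controls (log2 fold change -1.29, limma adjusted p = 0.0251), passing in 4 of 8 fits that left out 1 library (adjusted p 0.0164 to 0.109). The Foxd1Cre allele in common use interrupts the gene. Which allele was used here is not labelled, so the level of Foxd1 is not taken as a measure of stromal cells. Ureteric bud markers summed to 11558, 10850.5, 10260.5 and 9048 in mutants 1 to 4, against 10138, 8895, 8424 and 8041 in controls 1 to 4. Committing nephron markers summed to 13108, 12599, 11576 and 10801 in mutants 1 to 4, against 13911, 13246, 12014 and 11781 in controls 1 to 4. Both lists overlapped between groups. In whole kidneys, fewer cells of a type and less RNA per cell cannot be told apart, and the part of cell composition in the FGF levels was not tested.

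**Figure D4:**
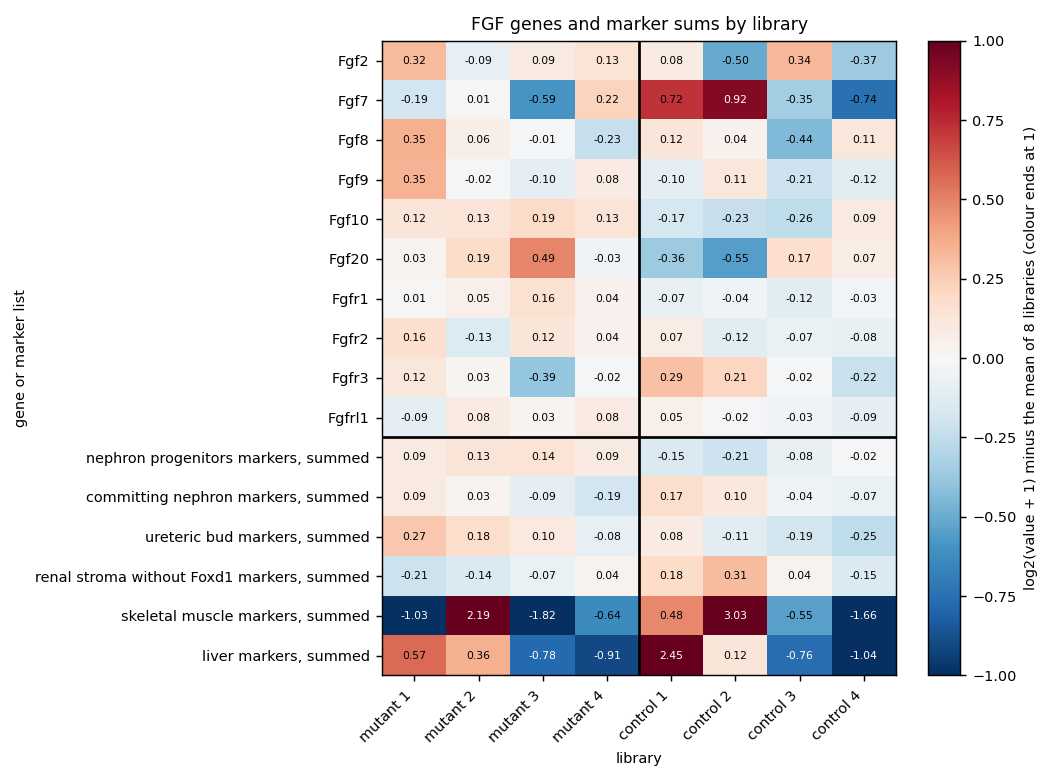
Log2(value + 1) minus the mean of 8 libraries (colour, ending at 1 and -1, with the value printed) for the 10 FGF genes and 6 summed marker lists (rows) in each mutant and control library (columns). Controls 1 and 2 are high for Fgf7 and Fgfr3 and low for Fgf20 and nephron progenitor markers, and muscle and liver markers differ by library within both groups.

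Of all other tested genes, those with the pattern most like Fgf10 over the 8 libraries were Shroom3 (r = 0.974) and Rhbdd2 (0.971). Fgf7 was nearest to Tgfbr2 (r = 0.993), which encodes a TGF-beta receptor, and to Psap (0.979), and Fgf20 to Lzts1 (0.995) and Fam160a1 (0.968). Agk and Jmjd6 were nearest to Fgfr1 (0.969 and 0.952), and Gng12 and Klf5 to Fgfr3 (0.979 and 0.974). For Fgf8 these were Sdf2l1 (0.961) and Chchd6 (0.960), for Fgf9 Timm8b (0.945) and Zbtb2 (0.931), and for Fgf2 Tmem60 (0.960) and Tmem120b (0.953). Fgfr2 was nearest to Iigp1 (0.957) and Slc6a17 (0.937), and Fgfrl1 to Lgi3 (0.921) and Clpb (0.916). These were picked as the highest values among all tested genes, and none of these genes passed the test between genotypes.

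The rest of the pathway was followed in 5 lists of 59 symbols, of which 45 were tested and 0 were called by limma, where 0.57% of all tested genes were, so that few calls would be found among 45 genes at that share. An unadjusted p under 0.05 was reached by 11 of the 45 (8 higher and 3 lower in mutants), where 8.7% of all tested genes reached it. Groups without overlap, stated below for single genes, were found for 5.31% of all tested genes. The tested genes named from each list are the 4 with the smallest unadjusted p. Among other ligand genes, 7 of 16 were tested, with a median log2 fold change of -0.27. Fgf5, a ligand known from the hair cycle, had 6.68, 18.1, 6.72 and 10.7 normalised counts in mutants 1 to 4, against 23.0, 25.8, 17.4 and 28.2 in controls 1 to 4. Mutant 2 was inside the control range and the other mutants were under it (log2 fold change -1.18, 95% interval -1.89 to -0.46, limma adjusted p = 0.193). Fgf18, known from skeletal and lung development, had 24.8, 37.3, 37.0 and 38.7 in mutants 1 to 4, against 54.4, 66.2, 44.6 and 49.8 in controls 1 to 4. All mutants lay under all controls (log2 fold change -0.63, 95% interval -1.05 to -0.22, limma adjusted p = 0.245). Fgf12 and Fgf11, which encode intracellular FGF homologues, had log2 fold changes of 0.29 and -0.30 (limma adjusted p = 0.657 and 0.820). The 9 ligand genes not tested had means of 0.129 (Fgf4) to 4.40 (Fgf14) normalised counts.

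Other receptors, co-receptors and FGF-binding proteins had 6 of 8 genes tested and a median log2 fold change of 0.021. The adhesion protein genes Flrt3, Flrt1 and Flrt2, whose products bind FGF receptors, and the receptor gene Fgfr4 had log2 fold changes of -0.13, 0.20, -0.039 and 0.22 (limma adjusted p from 0.617 to 0.934). Kl and Klb, co-receptors of endocrine FGFs, were under the filter, at means of 3.73 and 2.02. Signal transducers link the receptor to MAP kinase. The 17 tested of 18 had a median log2 fold change of 0.014 and extremes of -0.15 and 0.18. Gab1, a docking protein, had a log2 fold change of -0.15 and the kinase gene Map2k2 one of 0.11 (limma adjusted p = 0.359 and 0.361). The groups of these genes did not overlap, with Gab1 at 664 to 765 in mutants against 767 to 829 in controls and Map2k2 at 1151 to 1186 in mutants against 1050.5 to 1119.95 in controls. Values were 0.057 for Nras and -0.043 for the phosphatase gene Ptpn11.

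Feedback inhibitors had positive log2 fold changes in 9 of 10 tested genes, with a median of 0.096, where 51.9% of all tested genes were positive. Spry1, a Sprouty inhibitor of receptor tyrosine kinases, had 1129.7, 1083, 977 and 978 normalised counts in mutants 1 to 4, against 892, 892, 843 and 829 in controls 1 to 4. Every mutant was above every control (log2 fold change 0.27, SE 0.055, limma adjusted p = 0.0656, and 0.0520 to 0.212 with 1 library left out). It passed with DESeq2 (adjusted p = 0.0057), which called 214 genes over the table, against 78 by limma. Spry2 had 461, 431, 412 and 419 in mutants 1 to 4, against 367, 387, 323 and 407 in controls 1 to 4, again without overlap (log2 fold change 0.22, limma adjusted p = 0.337). For Dusp6, a phosphatase of MAP kinase, and Spred2, a Sprouty relative, the values were 0.11 and 0.076 (limma adjusted p = 0.550 and 0.697).

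FGF-responsive transcription factors had positive log2 fold changes in 5 of 5 tested genes, with a median of 0.24. Etv5 had 2044, 1989, 1955 and 1747 normalised counts in mutants 1 to 4, against 1717, 1571, 1523 and 1756 in controls 1 to 4. Mutant 4 lay just under control 4 and the other mutants were above all controls (log2 fold change 0.24, limma adjusted p = 0.133). Etv4 had 1065, 1159, 1115 and 990.2 in mutants 1 to 4, against 937, 847, 737 and 970.3 in controls 1 to 4, without overlap (log2 fold change 0.32, limma adjusted p = 0.145). Etv1 and Myc had values of 0.38 and 0.16 (limma adjusted p = 0.184 and 0.219). Etv5 passed without mutant 4 (adjusted p = 0.0449), Etv4 without control 4 (adjusted p = 0.0473), and both passed with DESeq2 (adjusted p = 0.0219 for Etv5 and 0.0269 for Etv4). These fits called 104 genes without mutant 4, 185 without control 4 and 214 with DESeq2, against 78 by limma on all 8 libraries. These factors and Sprouty genes also answer to Ret signalling in the ureteric bud, whose summed markers are given above, and their source was not tested. Earlier results of these data were known when the lists were made, so their directions are no independent evidence.

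**Figure D5:**
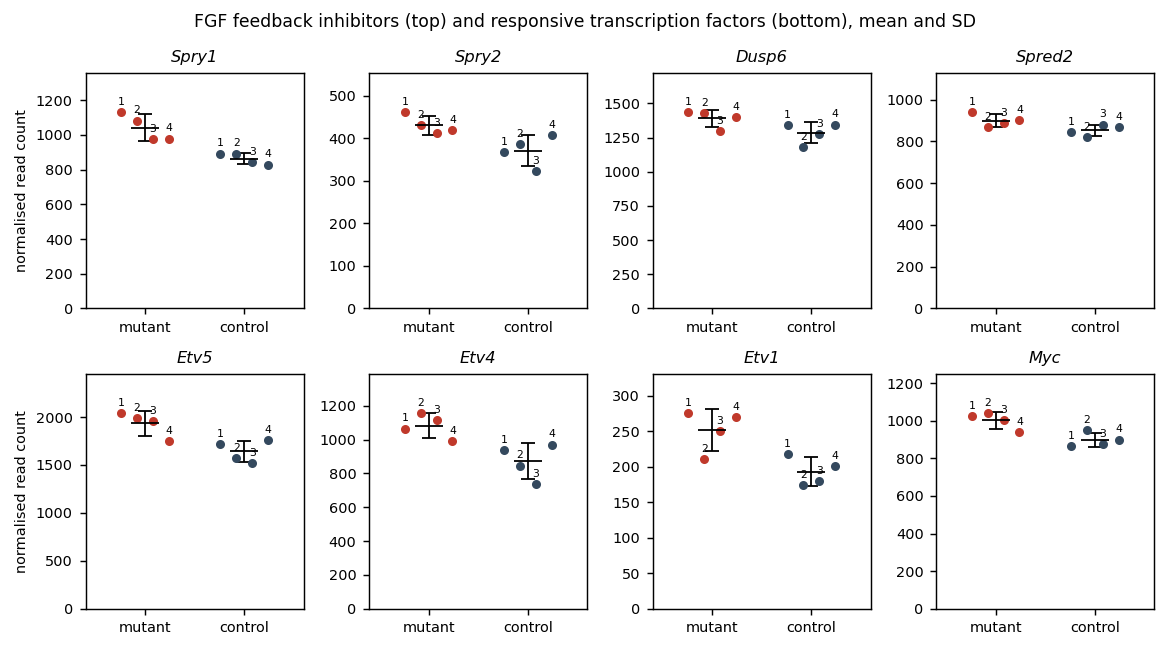
Normalised read count (y axis, from 0) of 4 feedback inhibitor genes (top) and 4 responsive transcription factor genes (bottom) in the mutant and control libraries, numbered 1 to 4, with mean and SD. They are the 4 tested genes with the smallest unadjusted p in each list. Spry1, Spry2 and Etv4 have all mutants above all controls, and the means of Etv5 and Myc lie apart while single libraries overlap.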

How the data were processed

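Poly(A)-selected RNA was sequenced from 500 ng of input per library, per the labels' protocols. TopHat2 2.0.12, HTSeq and DESeq2 1.4.5 with mm10 (GRCm38) are named in the submitters' processing notes, and annotation and strand use are not given in the sources used here. The authors deposited normalised signal values, from which whole reads were recovered (100% of values within 0.01 read) by a single size factor for each library. The deposited table also holds a fold change (ratio of means), its log2 and p-values, per the file headers, of which fold changes and adjusted p-values are quoted by name.

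Values were tested as log2(value + 1) by limma 3.58.1 (intensity trend, R 4.3.3). Recovered reads were tested with edgeR 4.0.16 and DESeq2 1.42.0 as alternatives. The limma, edgeR and DESeq2 fits were tested on simulated data. Within a group, counts of any pair of libraries differed beyond sampling noise (chi-square of 2.89 to 10.98 for each degree of freedom).

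Genes named are the 10 members, Smo, Foxd1, up to 4 per pathway list by smallest p, and the 2 most similar genes per member. Alternatives covered pseudocount, filter, scaling, test, a block for the sample number, a Y-linked covariate and libraries left out. Members and lists were chosen with earlier results of these data known. Positions and promoters are from RefSeq GRCm38.p6. Figures used matplotlib 3.10.9 in Python 3.11.15.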

Additional observations from a re-analysis of the deposited data

Results flagged for a closer look

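Of 78 groups of 4 values, 8 held a library far from the other 3, by a gap of 0.83 to 0.92 of the group's range. The count expected by chance is about 3.9, but the groups share the same 8 libraries, so no conclusion is drawn from it. Fgf10 was 335 in mutant 3, against 319 to 321 in the other mutants. Its SD among mutants (2.35% of the mean) was under that of counting error alone (5.70%). Fgf8 was 46.5 in control 3, against 65.1 to 68.9 in the other controls. Fgf18 was 24.8 in mutant 1, against 37.0 to 38.7 in the other mutants, and Flrt1 was 138 in control 4, against 86.2 to 91.0 in the other controls. Summed skeletal muscle markers were 2248 in mutant 2, against 139 to 317 in the other mutants, and 4022 in control 2, against 155 to 688 in the other controls. Liver markers summed to 886 in control 1, against 78.0 to 176 in the other controls. Adrenal and gonad markers summed to 164 in control 4, against 257 to 269.8 in the other controls.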

How the results depend on the processing

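No FGF gene was called under any of the alternatives that kept all libraries or left out a pair, and with 1 library left out the number called was 0 to 1 (Fgf10, without control 4). Other pathway genes called were 0 to 1 with 1 library left out, 3 by DESeq2 (Spry1, Etv5 and Etv4) and 2 with the sample number as a replicate block (Spry1, adjusted p = 0.0114, and Etv1, adjusted p = 0.0331, by limma). With that block Foxd1 had a limma adjusted p of 3.35e-06. Genes called over the table, 78 as reported, were 214 by DESeq2, 232 with the replicate block, 2 without both libraries numbered 2, 29 without controls 1 and 2, and 18 to 185 with 1 library left out. Same-numbered libraries had correlated deviations for numbers 1 to 3 (r = 0.325, 0.287 and 0.294) but not clearly for number 4 (0.064), and mutant 4 correlated best with control 3 (0.101), so the numbers were not taken as pairs. Signs changed without controls 1 and 2 for Fgf7 (0.41), Fgfr3 (0.055) and Flrt2 (0.075). In each of these genes, controls 1 and 2 were the highest libraries, so leaving them out could only raise the value. With 1 library left out, signs changed for Fgf8 (-0.050 to 0.17) and Flrt2 (-0.096 to 0.00067). The cause was not tested. A minimum mean of 50 gave no value for genes under it, Fgf2, Fgf7 and Fgf20 among them. For Fgf2, with 9 to 18 reads per library, depth limits what can be seen.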
